A study of Mus musculus with 43 samples.

Results

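Ppargc1a, Ppargc1b, Prdm16, Ebf2, Esrra, Esrrg, Ppara, Pparg, Zfp516 and Irf4 encode transcriptional regulators of beige fate, the capacity of cells in white fat to take on a heat-producing adipocyte programme. These 10 genes were chosen by name, with earlier results of these data known, and are 10 of the 22622 gene identifiers in each deposited table. Beige adipocytes lie within white fat depots, carry many mitochondria and burn fuel through the uncoupling protein Ucp1. The coactivator PGC-1α (Ppargc1a) is induced by adrenergic signalling and has no DNA-binding domain of its own, so it acts on genes through partners such as the estrogen-related receptors and the PPAR receptors. PRDM16, EBF2 and ZFP516 are known for directing cells towards the thermogenic adipocyte fate, and PPARγ for adipocyte differentiation itself.

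The measurements were poly(A) RNA profiles of mouse inguinal white adipose tissue, a subcutaneous depot rich in beige adipocytes, in 43 libraries of 9 groups. At P28, postnatal day 28, C57BL/6J mice housed at 30 C (n = 4), a temperature near thermoneutrality for mice, were set against C57BL/6J mice at 22 C (n = 4). The same 4 libraries at 22 C served as wild type for TrkA-flox Th-cre mice at P28 and 22 C (n = 4), in which the floxed allele is combined with Cre driven by the promoter of Th, the catecholamine synthesis gene of sympathetic neurons. These controls were C57BL/6J mice, not littermates with the floxed allele. Bcl6-flox Prx1-cre mice, in which Cre is expressed from the mesenchymal Prx1 promoter, were set against Bcl6-flox mice without Cre at P25 and 22 C (n = 8 and n = 7) and at 9 weeks and 4 C (n = 4 each). BCL6 is a transcriptional repressor. C57BL/6J mice of 9 weeks were compared between 4 C (n = 4) and 22 C (n = 4). Whether the libraries of a group came from separate animals is not stated in the labels; the spread behind every p-value is that between these libraries and may be in part technical.

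Promoter sequences are given for Ppargc1a, the coactivator called at P25, and Irf4, the factor with the smallest adjusted p at 30 C. The windows below run from 250 bases before to 50 bases after a RefSeq start of the gene on GRCm38.p6. Capitals mark a cAMP response core, TGACGT on the minus strand of the printed sequence and therefore written ACGTCA. It was found in Ppargc1a and not in Irf4.
Ppargc1a, chr5:51567676-51567975, minus strand: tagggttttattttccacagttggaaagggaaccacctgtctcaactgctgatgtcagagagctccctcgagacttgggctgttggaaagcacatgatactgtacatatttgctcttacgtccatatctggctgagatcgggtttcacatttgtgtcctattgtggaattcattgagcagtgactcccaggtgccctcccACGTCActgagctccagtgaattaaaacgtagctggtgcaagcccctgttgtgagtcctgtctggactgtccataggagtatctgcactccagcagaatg
Irf4, chr13:30748983-30749282, plus strand: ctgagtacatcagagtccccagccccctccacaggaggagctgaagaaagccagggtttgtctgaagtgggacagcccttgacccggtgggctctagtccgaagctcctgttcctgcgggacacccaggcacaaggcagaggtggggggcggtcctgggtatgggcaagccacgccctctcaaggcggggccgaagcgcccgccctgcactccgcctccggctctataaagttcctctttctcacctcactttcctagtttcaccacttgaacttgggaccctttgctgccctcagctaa
TGACGT was present on either strand in 7.51% of all 32851 promoters of this length in the same table. The table held 12 promoters for 7 of the 10 members, and of these the core was found in the Ppargc1a promoter alone, centred 47 bases before that start. The Ppargc1a window was the only 1 held for this gene. It lies inside the gene's span, chr5:51454249-52115853, so sequence at the outermost start was not searched. The shorter half-site TGACG, which lies inside that core, was present in Ppargc1a and Ppara and in 20.8% of all promoters. The nuclear receptor half-site AGGTCA was found in 2 of the Pparg promoters and in 16.3% of all. The interferon half-site GTTTC was found in Ppargc1a, Irf4, 1 Esrrg promoter and 1 Pparg promoter, and in 45.0% of all. The estrogen-related receptor site TCAAGGTCA, of which AGGTCA is the end, had no match among the 12 promoters and a share of 0.423%, and the STAT and BCL6 palindrome TTCNNNGAA had none and a share of 8.30%. A match is a run of letters, not a shown binding site. Ppargc1b, Ebf2 and Zfp516 had no promoter in the table.

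In RefSeq on GRCm38.p6 the coactivator genes lie at chr5:51454249-52115853 (Ppargc1a) and chr18:61291445-61400756 (Ppargc1b). The fate regulators lie at chr4:154316122-154637360 (Prdm16), chr14:67233292-67430952 (Ebf2), chr18:82909688-83005314 (Zfp516) and chr13:30749233-30766981 (Irf4). The nuclear receptors lie at chr19:6910977-6922048 (Esrra), chr1:187608510-188214885 (Esrrg), chr15:85734910-85806851 (Ppara) and chr6:115360879-115490404 (Pparg). The measured values were totals per gene, without exon or isoform.

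Estimated depth was 3503000 to 6432000 reads per library in the P28 tables, 4996000 to 15780000 at P25, 16870000 to 30730000 for the Bcl6 genotypes at 9 weeks and 6268000 to 8861000 for the adult C57BL/6J libraries. All 6 adipocyte markers measured were above 0 in every library. Levels of the female-specific transcript Xist split groups unevenly: it was high in 3 of 4 libraries at 30 C, against 2 of 4 at 22 C at P28, and in 1 of 4 TrkA Th-cre libraries. It was high in 4 of 8 Prx1-cre and 3 of 7 flox libraries at P25, in all 8 libraries of the Bcl6 genotypes at 9 weeks, and in 2 of 4 adult wild-type libraries at each temperature. Summed skeletal muscle markers varied most between libraries, with 532261 normalized counts in flox replicate 3 at 9 weeks. Total Bcl6 RNA was higher, not lower, in the libraries labelled Prx1-cre: it was 2714 ± 584 in 8 of them, against 825 ± 340 in 7 flox libraries at P25, and 11610 ± 2340, against 1995 ± 392, at 9 weeks (SD, n = 4 each). A gene total does not show which exons were read, so it does not check the deletion. In bulk tissue, fewer cells of a type and less RNA per cell cannot be told apart.

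All 10 regulators reached the minimum level and were tested in all 5 tables. A gene was called where its adjusted p, over all genes tested in its table, was below 0.05. At 30 C 1 of the 10 rose and 1 fell, where 1.29% of all tested genes rose and 3.17% fell. In TrkA Th-cre mice 0 passed with limma, against 1.34% of all genes higher and 1.32% lower. In Prx1-cre mice at P25 1 rose and 0 fell, against 1.56% of all genes higher and 1.97% lower. In Prx1-cre mice at 9 weeks 0 rose and 2 fell, against 9.01% of all genes higher and 5.46% lower. In adults at 4 C 2 rose and 0 fell, against 2.03% of all genes higher and 2.44% lower. With 10 members, each count of 1 or 2 is a description of those genes, not of the set. Ebf2, Prdm16, Pparg and Ppargc1b passed in none of the 5 comparisons.

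**Figure D1:**
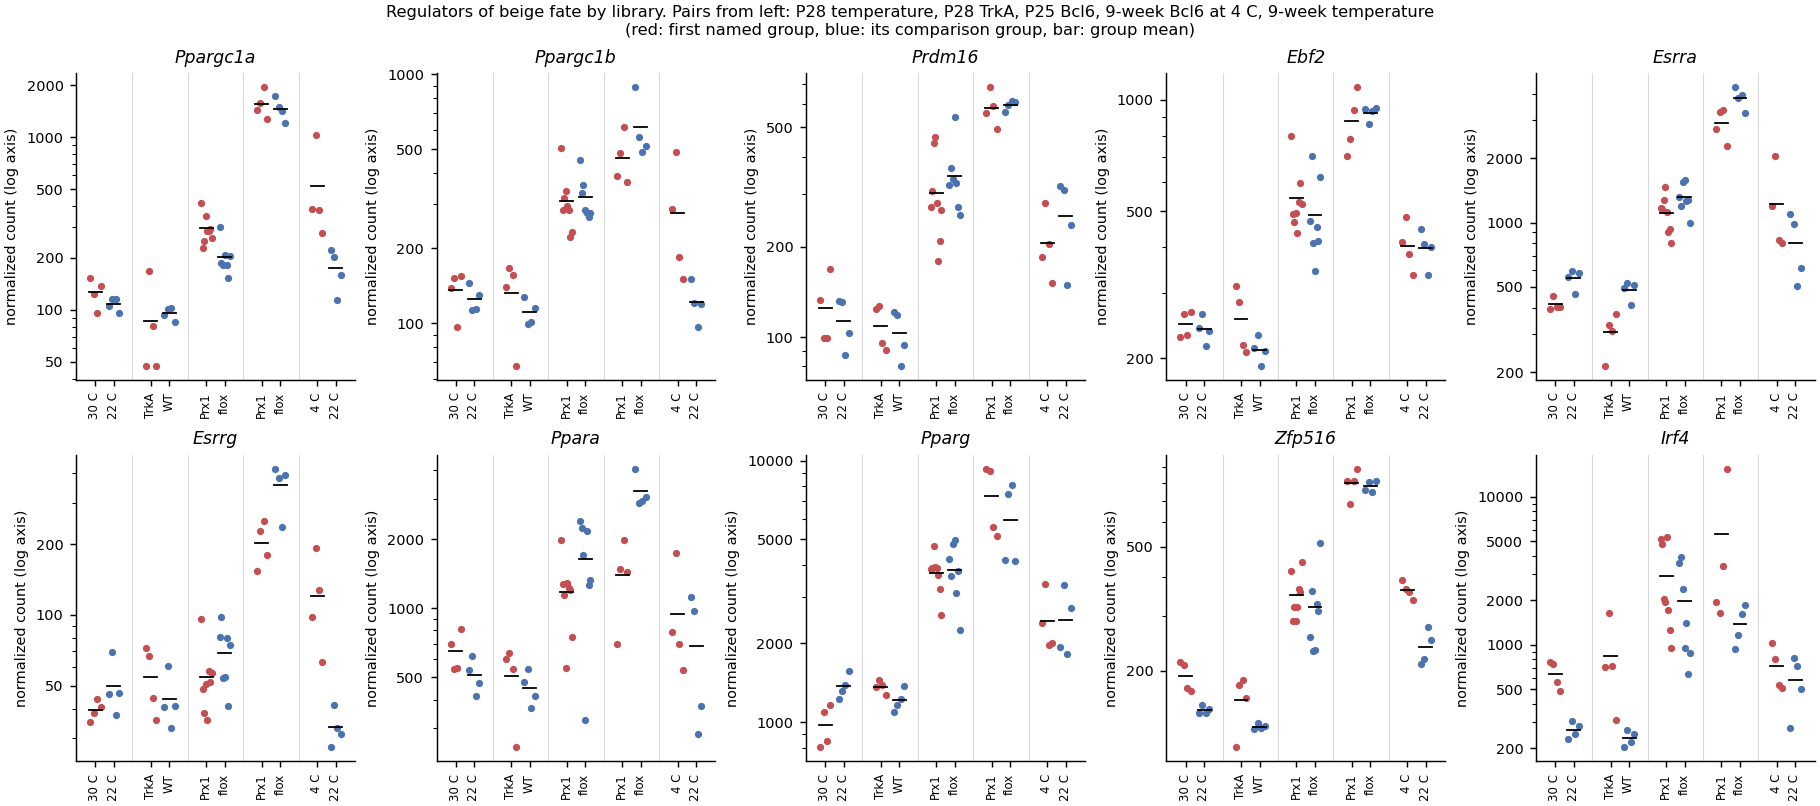
Normalized counts (log axes) of the 10 regulators in every library; in each pair of columns the red points are 30 C, TrkA Th-cre, Prx1-cre or 4 C libraries and the blue points their comparison group, and bars are group means. Tables were scaled separately, so only the members of a pair share a scale; Irf4 at 30 C, Ppara in the adult Prx1-cre mice and Esrrg at 4 C lie wholly apart from their comparison group.

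Warm housing during the weaning period was first set against standard housing. Irf4, an interferon regulatory factor known for controlling lipolysis genes in fat and for partnering PGC-1α in thermogenic adipocytes, rose, and Esrra, the receptor ERRα that with PGC-1 drives genes of mitochondrial respiration, fell. Irf4 was 760, 738, 564 and 484 normalized counts at 30 C, against 230, 303, 249 and 283 at 22 C. Every library at 30 C lay above every library at 22 C. The means were 637 ± 134 at 30 C and 266 ± 32.9 at 22 C (SD, n = 4 each), a log2 difference of 1.24 ± 0.15 (SE, adjusted p = 0.00499). The difference was called with any 1 of the 8 libraries left out (adjusted p = 0.00482 to 0.0187), and missed the threshold with the muscle marker score as a covariate (1.27, adjusted p = 0.0513).

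Esrra was 396, 454, 404 and 404 at 30 C and 559, 593, 465 and 580 at 22 C. The groups did not overlap, and the lowest library at 22 C, replicate 3, lay close to the highest at 30 C. The log2 difference was -0.40 ± 0.09 (SE, adjusted p = 0.0405). This call was lost on leaving out any library other than 22 C replicate 3, over which the adjusted p was 0.00639 to 0.127. Its close relative Esrrg, which in other tissues drives oxidative genes, was 35.1 to 43.7 at 30 C and 37.5 to 69.4 at 22 C and did not pass (-0.30 ± 0.20, adjusted p = 0.462).

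Pparg, the master factor of adipocyte differentiation, was 803, 1090, 849 and 1160 at 30 C, against 1230, 1320, 1390 and 1570 at 22 C. Zfp516, a zinc finger factor that binds the Ucp1 promoter, was 213, 209, 176 and 173 at 30 C, against 147, 156, 147 and 151 at 22 C. Both genes had groups that did not overlap, and neither passed: Pparg had a log2 difference of -0.51 ± 0.13 (adjusted p = 0.0605) and Zfp516 of 0.35 ± 0.09 (adjusted p = 0.0702). Ppara, the receptor for fatty acids that drives their oxidation, was 541 to 814 at 30 C and 414 to 621 at 22 C (0.34 ± 0.16, adjusted p = 0.290). The coactivators and the fate factors Prdm16 and Ebf2 overlapped between temperatures, with log2 differences of 0.05 to 0.22. Ppargc1a itself was 95.9 to 153 at 30 C and 96.2 to 116 at 22 C (0.22 ± 0.15, adjusted p = 0.484), while Ucp1 fell by 4.06 ± 0.37 on the log2 scale (adjusted p = 0.0017).

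The median log2 difference was 0.11 over the 10 regulators and 0.01 over the 12283 genes tested, of which 1.29% rose and 3.17% fell. Under equal library totals the split of all calls moved to 46.4% higher, against 28.9% higher with the deposited scaling. Among 25 other measured regulators of adipocyte fate, 3 rose and 0 fell: Cebpd (1.27 ± 0.15), an early adipogenic factor, Foxo1 (0.44), a factor restrained by insulin, and Klf15 (0.47), a factor of metabolic genes. Among 28 measured cofactors and binding partners, 1 rose and 0 fell. That gene was Tle3, a corepressor known to oppose PRDM16 at thermogenic genes, at 799, 753, 813 and 1050 at 30 C and 597, 474, 566 and 592 at 22 C (0.61 ± 0.12, adjusted p = 0.0238). Among genes that these regulators are known to drive, 7 of 13 thermogenic output genes, 14 of 24 mitochondrial genes and 9 of 17 fatty acid oxidation genes fell, and 0 of them rose, with median log2 differences of -0.86, -0.47 and -0.67, beside 0.01 over all genes tested and 3.17% of all genes lower.

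Summed muscle markers were 318 to 16728 at 30 C, against 344 to 960 at 22 C, with at most 1 of 10 at 0 in a library. Summed macrophage markers were 6829 to 8441 at 30 C, against 4688 to 6362 at 22 C, none of 12 was at 0, and 3 of 12 rose. Lymphocyte markers, which matter for Irf4 because lymphocytes express it, summed to 6833 to 8349 at 30 C and 5997 to 7807 at 22 C. The part of muscle and lymphocytes in the results was not tested beyond covariate fits with their marker scores. No fit used a macrophage score, so the part of macrophages was not tested. With the lymphocyte marker score as a covariate, Irf4 was called and Esrra was not (adjusted p = 0.103). Among libraries with low Xist the Irf4 difference was 0.87 (1 library at 30 C, 2 at 22 C), and among those with high Xist 1.36 (3 at 30 C, 2 at 22 C). The Esrra differences were -0.51 and -0.31 in the same strata. With Xist as a covariate the Esrra difference was not called (-0.38, adjusted p = 0.0575) and that of Ppara was (0.45, adjusted p = 0.0465).

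TrkA-flox Th-cre mice were set against wild type at the same age and temperature to ask what this genotype does to the weaning-age depot. No regulator passed the adjusted threshold with limma, and Irf4 and Esrra had the smallest adjusted p-values of the 10. Irf4 was 705, 1630, 723 and 310 in TrkA Th-cre libraries and 203, 265, 221 and 249 in wild type. All 4 TrkA Th-cre values lay above all wild-type values, and they spanned a far wider range. The means were 841 ± 557 in TrkA Th-cre and 234 ± 27.9 in wild-type libraries (SD, n = 4 each), a log2 difference of 1.61 ± 0.39 (adjusted p = 0.0581).

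Esrra was 214, 332, 312 and 373 in TrkA Th-cre libraries and 494, 520, 413 and 511 in wild type. The groups did not overlap, and the log2 difference was -0.68 ± 0.16 (adjusted p = 0.0563). Without TrkA Th-cre replicate 4, the library with the lowest Irf4 and the highest Esrra of its group, both genes passed (adjusted p = 0.00448 for Irf4 and 0.0217 for Esrra). The 30 C and TrkA Th-cre comparisons share their 4 control libraries, so their like values are not independent.

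Ppargc1a was 47.6, 169, 80.5 and 47.5 in TrkA Th-cre libraries and 93.0, 101, 103 and 84.7 in wild type. The wild-type values lay within the spread of the TrkA Th-cre values (-0.35 ± 0.35, adjusted p = 0.637). TrkA Th-cre replicate 2 was highest in both Ppargc1a and Irf4, and replicate 4 was lowest in Ppargc1b (67.5), Ppara (248) and Irf4 (310). The other 7 regulators had log2 differences of 0.08 to 0.29, and each overlapped between genotypes.

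The median over the 10 regulators was 0.18, against -0.01 over the 11899 genes tested, of which 1.34% rose and 1.32% fell. Of 25 other regulators 0 rose and 1 fell, Mecom (also called Evi1 or PRDM3), a relative of PRDM16, at 63.1, 49.3, 59.0 and 61.2 in TrkA Th-cre libraries and 103, 104, 166 and 98.7 in wild type (-0.98 ± 0.18, adjusted p = 0.0253). Of 27 partners 0 rose and 1 fell, the histone deacetylase gene Hdac1 (-0.43, adjusted p = 0.0385). Of 13 output genes 4 fell, and 0 of 24 mitochondrial and 0 of 17 fatty acid oxidation genes passed in either direction. Macrophage markers summed to 7161 to 8860 in TrkA Th-cre libraries, against 4155 to 5590 in wild type, and 4 of 11 tested rose. Schwann cell markers summed to 1359 to 2049, against 2205 to 3399. Skeletal muscle markers summed to 1146 to 6120 in TrkA Th-cre libraries, against 308 to 859 in wild type, without overlap; 3 of 10 rose, the median log2 difference was 1.93, and at most 1 of 10 was at 0 in a library. With the muscle score as a covariate, 19 genes of all kinds passed in place of 317, and the difference was 1.86 for Irf4 (adjusted p = 0.404) and -0.17 for Esrra (adjusted p = 0.765). The part of the macrophage and Schwann cell markers in the regulator values was not tested.

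Bcl6-flox Prx1-cre mice at P25 were set against Bcl6-flox mice to ask what the Prx1-cre genotype does around weaning. Ppargc1a rose and was the 1 regulator called. Its lowest, median and highest values were 229, 285 and 416 in 8 Prx1-cre libraries and 152, 187 and 300 in 7 flox libraries. The groups overlapped through 1 flox library, M1, at 300; the other 6 flox libraries were at 208 or less, below every Prx1-cre library. The means were 297 ± 60.1 (SD, n = 8) in Prx1-cre and 202 ± 47.1 (SD, n = 7) in flox libraries, a log2 difference of 0.56 ± 0.14 (adjusted p = 0.0422). The call was lost on leaving out any 1 library other than Prx1-cre M2, flox M1 or flox F4 (adjusted p = 0.00994 to 0.0948 over the 15 fits), and the log2 difference stayed between 0.49 and 0.66. The letters M and F in the column names matched low and high Xist in all 15 libraries, and the difference was 0.50 among low-Xist and 0.66 among high-Xist libraries.

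The genotypes overlapped for each of the other 9 regulators, and none of these differences passed. Irf4 had a lowest, median and highest value of 952, 1980 and 5320 in Prx1-cre libraries and 635, 1410 and 3910 in flox libraries (0.60 ± 0.47, adjusted p = 0.623). Ppara had 548, 1210 and 1990 in Prx1-cre libraries and 327, 1710 and 2410 in flox libraries (-0.35 ± 0.37, adjusted p = 0.741). The Irf4 difference was thus as large as that of Ppargc1a, with a standard error of 0.47 in place of 0.14. Esrra had medians of 1140 and 1280 in Prx1-cre and flox libraries (-0.26 ± 0.13, adjusted p = 0.371), and the remaining 6 regulators had log2 differences of -0.34 to 0.17.

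The median over the 10 was -0.04, against 0.00 over the 12738 genes tested, of which 1.56% rose and 1.97% fell. Ucp1 fell by 4.18 ± 0.38 on the log2 scale (adjusted p = 6.48e-06). Of 25 other regulators 3 rose and 0 fell: Bcl6 itself, Ppard (0.38, adjusted p = 0.0123), which encodes the third PPAR receptor, and Mecom (0.55 ± 0.13, adjusted p = 0.0312). No partner of 28 passed in either direction. Of 14 output genes 11 fell and 1 rose, the nucleoside transporter gene Slc29a1 (1.27), 10 of 17 fatty acid oxidation genes fell, and 1 of 24 mitochondrial genes fell. Muscle markers summed to 237 to 76718 in Prx1-cre libraries and 4723 to 37829 in flox libraries, and lymphocyte markers to 265 to 3011 and 133 to 4905 in the same order. Their part in the spread of Irf4 and Ppara was not tested.

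The 15 libraries at P25 were enough to ask which regulators varied together. Pearson and Spearman correlations were computed for all 45 pairs on the log2 scale after subtracting each genotype's mean, with 100000 permutations of libraries within genotypes, and 8 pairs had an adjusted p below 0.05 by Pearson's r. Esrra and Pparg varied together (r = 0.834, p = 4e-05, adjusted 0.0018; rho = 0.886, p = 1e-05, the smallest these permutations can give, adjusted 0.00045, permutation tests). Without the 2 libraries farthest from the Esrra median r was 0.879, and it was 0.542 in the 8 low-Xist and 0.780 in the 7 high-Xist libraries. Zfp516 ran against both. With Pparg r was -0.868 (p = 0.00021, adjusted 0.00345) and rho -0.886 (p = 0.00017, adjusted 0.003, permutation tests), and r was -0.694 without the 2 libraries farthest from the Pparg median. With Esrra r was -0.787 (p = 0.00023, adjusted 0.00345) and rho -0.782 (p = 0.00091, adjusted 0.00882, permutation tests), and r was -0.770 without the 2 libraries farthest from the Esrra median. Both stayed at -0.594 or below in each Xist stratum.

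Ebf2, a marker and driver of thermogenic precursors, varied with Esrrg and with Zfp516. For Esrrg r was 0.820 (p = 0.00039, adjusted 0.00439) and rho 0.864 (p = 0.0002, adjusted 0.003, permutation tests), and r was 0.627 without the 2 libraries farthest from the Ebf2 median. For Zfp516 r was 0.713 (p = 0.00639, adjusted 0.0359) and rho 0.732 (p = 0.00521, adjusted 0.0293, permutation tests), and r was 0.770 without the 2 libraries farthest from the Ebf2 median. Prdm16 varied with Esrra, and less tightly among high-Xist libraries, where r was 0.395. Over all 15 r was 0.781 (p = 0.00177, adjusted 0.0159) and rho 0.768 (p = 0.0022, adjusted 0.0165, permutation tests), and r was 0.653 without the 2 libraries farthest from the Prdm16 median. Ppargc1b, the other PGC-1 coactivator, varied with Irf4. For this pair r was 0.710 (p = 0.00286, adjusted 0.0215) and rho 0.764 (p = 0.00276, adjusted 0.0177, permutation tests), and r was 0.647 without the 2 libraries farthest from the Ppargc1b median. Its relation with Ppargc1a rested on 2 libraries. For these coactivators r was 0.714 (p = 0.00575, adjusted 0.0359) and rho 0.457 (p = 0.0996, adjusted 0.224, permutation tests), and r was 0.182 without the 2 libraries farthest from the Ppargc1a median. Ppara and Irf4 were related by rank but not by Pearson's r. Here r was 0.576 (p = 0.022, adjusted 0.11) and rho 0.804 (p = 0.00098, adjusted 0.00882, permutation tests), and r was 0.782 without the 2 libraries farthest from the Ppara median. Ppargc1a had no relation with Esrra, Ppara or Pparg that passed (r = 0.09 to 0.16). Xist level was not subtracted, so differences between low- and high-Xist libraries enter r and p over all 15. In low- and high-Xist libraries r was 0.918 and 0.644 for Ebf2 with Esrrg, and 0.938 and 0.805 for Ebf2 with Zfp516. It was 0.510 and 0.731 for Ppargc1b with Irf4, 0.801 and 0.144 for Ppargc1b with Ppargc1a, and 0.889 and 0.619 for Ppara with Irf4. The libraries also differed in depth and in muscle and lymphocyte marker levels, whose part in each relation was not tested.

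**Figure D2:**
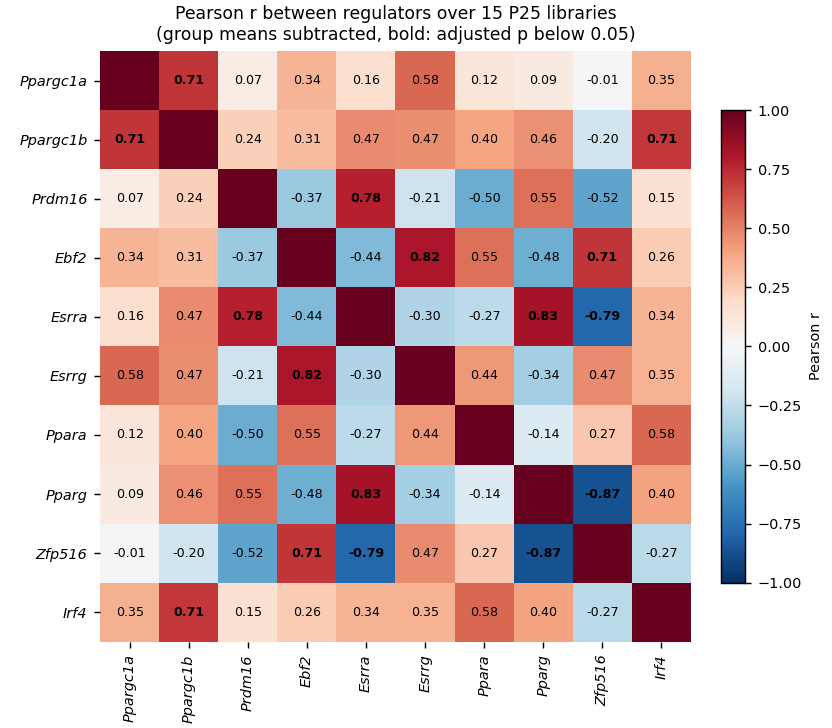
Pearson r for every pair of the 10 regulators over the 15 P25 libraries (8 Prx1-cre, 7 flox), on log2 values with each genotype's mean subtracted; bold values have a permutation p below 0.05 after adjustment over 45 pairs. The highest r is 0.83, for Esrra and Pparg, and the lowest -0.87, for Pparg and Zfp516; 8 of the 45 pairs are bold.

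Among the 12737 other genes tested at P25, the genes whose pattern over the 15 libraries was most like Ppargc1a were Ccnh (r = 0.877) and Dld (r = 0.876), a cyclin and a mitochondrial dehydrogenase subunit. Those most like Ppara were Fbxo21 (r = 0.923) and Odf2 (r = 0.900). These values rank likeness over 15 libraries and were not tested.

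The same Bcl6 genotypes were compared at 9 weeks in the cold. Ppara and Esrrg fell in Prx1-cre mice. Ppara was 698, 1480, 1990 and 1440 in Prx1-cre libraries and 4050, 2880, 2940 and 3060 in flox libraries. Every Prx1-cre library lay below every flox library, with means of 1403 ± 532 in Prx1-cre and 3230 ± 549 in flox (SD, n = 4 each). The log2 difference was -1.28 ± 0.29 (adjusted p = 0.021), and the call was lost without flox replicate 1, the highest library (adjusted p = 0.0662), among 8 fits that each left out 1 library.

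Esrrg was 154, 227, 251 and 180 in Prx1-cre libraries and 418, 383, 237 and 395 in flox libraries. Flox replicate 3, the library with the very high muscle markers, lay within the Prx1-cre range and the other 3 flox libraries lay above it. The log2 difference was -0.81 ± 0.22 (adjusted p = 0.042). The call held without Prx1-cre replicate 3 or flox replicate 3 and was lost without any of the other 6 libraries (adjusted p = 0.00424 to 0.115 over the 8 fits). It was also lost with the lymphocyte score as a covariate (-0.80, adjusted p = 0.0748) and with equal totals (-0.80, adjusted p = 0.0711).

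Esrra was 2740, 3300, 3370 and 2270 in Prx1-cre libraries and 4280, 3810, 3930 and 3240 in flox libraries. Flox replicate 4 overlapped the Prx1-cre range, and the difference did not pass (-0.40 ± 0.14, adjusted p = 0.0934). Irf4 was 1960, 1650, 3390 and 15500 in Prx1-cre libraries and 929, 1170, 1610 and 1850 in flox libraries. Prx1-cre replicate 4 stood far above the rest, and the difference did not pass (1.43 ± 0.64, adjusted p = 0.176). That library's summed lymphocyte markers were 243, against 215 to 243 over its group, and its summed macrophage markers were 32768, against 19705 to 24013 in the other 3 Prx1-cre libraries; their part in the Irf4 value was not tested.

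Ppargc1a, the gene called at P25, was 1440, 1570, 1940 and 1280 in Prx1-cre libraries and 1730, 1500, 1410 and 1200 in flox libraries. The groups overlapped (0.09 ± 0.15, adjusted p = 0.714). The difference between its genotype effects, 9 weeks minus P25, was -0.47 ± 0.23 (limma adjusted p = 0.744). By the same joint test 0 of 10 regulators differed between the ages at an adjusted p below 0.05, against 12 of all 12487 genes (0.0961%). Of the 10 regulators, 0 had an unadjusted p below 0.05. Ppara had -1.28 at 9 weeks and -0.35 at P25, and that difference of -0.94 ± 0.58 did not pass either (adjusted p = 0.875). Age, temperature and Xist levels all differ between these tables. Zfp516, Prdm16 and Ebf2 had log2 differences of -0.09 to 0.03 at 9 weeks, with standard errors of 0.13 or less.

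The median over the 10 was -0.06, against -0.02 over the 13496 genes tested, of which 9.01% rose and 5.46% fell. Of 28 partners 2 rose and 2 fell. The largest change was that of Perm1, a regulator known in muscle to act with PGC-1 and ERR on oxidative genes, at 48.6 to 180 in Prx1-cre libraries and 506 to 990 in flox libraries (-2.61 ± 0.39, adjusted p = 0.00443). The groups were far apart, and muscle markers summed to 175 to 4691 in Prx1-cre libraries and 2393 to 532261 in flox libraries, whose part in the Perm1 value was not tested. Nrip1, the corepressor RIP140 that restrains oxidative genes in adipocytes, was 2180, 1660, 1920 and 2400 in Prx1-cre libraries and 1480, 990, 1250 and 1040 in flox libraries (0.78 ± 0.15, adjusted p = 0.0124). Rxrb (-0.21) fell and Zfpm2 (0.72) rose. Of 26 other regulators 5 rose and 2 fell, and Mecom rose again, at 591, 535, 537 and 561 in Prx1-cre libraries and 223, 222, 285 and 203 in flox libraries (1.26 ± 0.11, adjusted p = 0.000585).

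Of 18 fatty acid oxidation genes, known targets of PPARα, 11 fell and 0 rose, with a median of -0.82; Ehhadh, a peroxisomal oxidation enzyme, fell by 1.82 ± 0.22 on the log2 scale. Of 14 output genes 13 fell and 1 rose, and of 24 mitochondrial genes 6 fell and 0 rose. Ucp1 was 6770, 20900, 27400 and 13500 in Prx1-cre libraries and 85400, 67400, 58700 and 55000 in flox libraries. Macrophage markers summed to 19705 to 32768 in Prx1-cre libraries, against 11286 to 15245 in flox libraries, and 9 of 12 rose. Their part in the regulator values was not tested.

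Adult wild-type mice at 4 C were compared with those at 22 C. Esrrg and Zfp516 rose in the cold. Esrrg was 97.5, 192, 128 and 63.2 at 4 C and 27.4, 41.4, 33.2 and 31.1 at 22 C. Every library at 4 C lay above every library at 22 C, and the log2 difference was 1.72 ± 0.33 (adjusted p = 0.033). Zfp516 was 390, 366, 358 and 337 at 4 C and 210, 218, 276 and 251 at 22 C. These groups also did not overlap, and each was narrow, with a log2 difference of 0.61 ± 0.12 (adjusted p = 0.033). Each call held in 1 of 8 fits that left out a library, Esrrg without 4 C replicate 4 and Zfp516 without 22 C replicate 3, with adjusted p-values of 0.0344 to 0.106 and 0.0286 to 0.116. Under equal library totals Zfp516 was not called (0.57, adjusted p = 0.0552).

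Ppargc1a was 384, 1030, 380 and 279 at 4 C and 223, 202, 114 and 160 at 22 C. The groups did not overlap, and 4 C replicate 2 stood far above the other 3. The log2 difference of 1.41 ± 0.40 did not pass (adjusted p = 0.0773). Ppargc1b was 288, 487, 185 and 150 at 4 C and 151, 121, 96.7 and 119 at 22 C, where the lowest value at 4 C fell just below the highest at 22 C (1.05 ± 0.34, adjusted p = 0.111). The same replicate 2 was highest in Ppargc1a, Ppargc1b, Esrra (2050), Esrrg and Ppara (1740). With Xist level as a covariate, Ppargc1a (adjusted p = 0.015), Ppargc1b (0.02) and Esrra (0.0392) passed in the limma fit. In that fit 5 of 10 regulators rose, where 2226 of all 12118 genes passed in either direction, against 542 without the covariate. Within Xist strata of 2 libraries per temperature, the Ppargc1a difference was 1.56 at low and 1.26 at high Xist, that of Esrrg 1.99 and 1.46, and that of Zfp516 0.82 and 0.40, in the same order.

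Esrra (0.58 ± 0.35, adjusted p = 0.363), Ppara (0.54 ± 0.52, adjusted p = 0.580) and Irf4 (0.36 ± 0.36, adjusted p = 0.601) overlapped between temperatures. Prdm16 was 152 to 280 at 4 C and 149 to 320 at 22 C (-0.28 ± 0.28, adjusted p = 0.591). Ebf2 and Pparg had log2 differences of 0.02 and 0.00, with standard errors of 0.14 and 0.24.

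The median over the 10 was 0.56, against 0.02 over the 12118 genes tested, of which 2.03% rose and 2.44% fell. Of 26 other regulators 1 rose and 0 fell. It was Esrrb, the third estrogen-related receptor, at 44.9, 27.5, 24.5 and 23.2 at 4 C and 2.98, 0.969, 3.33 and 2.22 at 22 C (3.21 ± 0.45, adjusted p = 0.0151). Of 28 partners 1 rose and 1 fell. Perm1 rose, at 172, 291, 151 and 83.5 at 4 C and 2.92, 0, 29.4 and 17.4 at 22 C (4.54 ± 1.00, adjusted p = 0.0457), and Tle3 fell, at 722, 796, 822 and 810 at 4 C and 1330, 1040, 1180 and 1060 at 22 C (-0.54 ± 0.11, adjusted p = 0.0345). Muscle markers summed to 17 to 33392 at 4 C and 97 to 48925 at 22 C, with up to 4 of 10 at 0 in a library. Of 14 output genes 7 rose and 0 fell (median 1.84), and 1 of 24 mitochondrial and 1 of 17 fatty acid oxidation genes rose. Of 17 measured genes of white adipocytes, many of them PPARγ targets, 2 fell at 30 C and 2 fell in TrkA Th-cre mice; 0 fell in the other 3 comparisons and 0 rose in any.

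Lymphocyte markers summed to 77 to 266 at 4 C, against 178 to 3251 at 22 C, with at most 1 of 14 at 0 in a library, and Schwann cell markers to 1496 to 1655, against 3072 to 3985. With the lymphocyte marker score as a covariate the Esrrg difference was 1.37 (adjusted p = 0.280) and that of Zfp516 0.65 (adjusted p = 0.200), and neither passed; 0 genes of any kind passed in that fit. The part of lymphocytes in the results was not tested beyond that fit, and the part of Schwann cells was not tested.

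**Figure D3:**
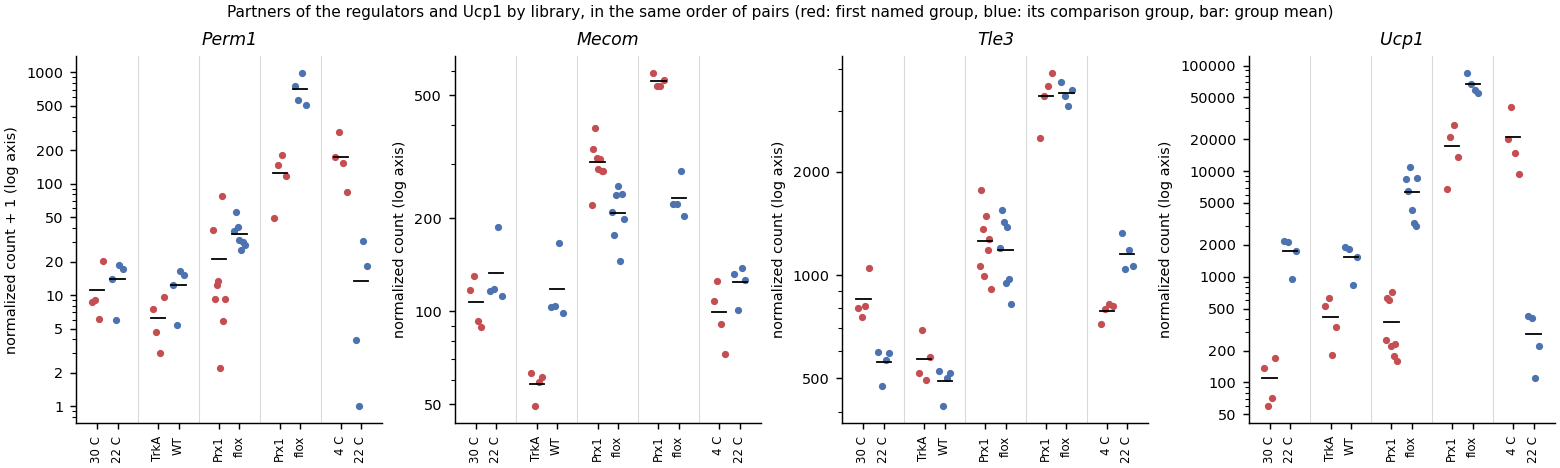
Normalized counts (log axes) of Perm1 (plotted as count + 1), Mecom, Tle3 and Ucp1 by library, with the 30 C, TrkA Th-cre, Prx1-cre or 4 C libraries in red left of their comparison group in blue and bars at group means. Perm1 lies lower in adult Prx1-cre than flox mice and higher at 4 C than at 22 C, and Mecom lies higher in Prx1-cre mice at 9 weeks without overlap.

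The response to a cooler temperature was compared between ages in 1 joint limma fit, 4 C minus 22 C at 9 weeks less 22 C minus 30 C at P28. Zfp516 was the 1 regulator of 10 that differed: its log2 difference was 0.61 at 9 weeks and -0.35 at P28, an interaction of 0.96 ± 0.14 (adjusted p = 0.0044). It was higher in all 4 libraries at 4 C than in any at 22 C, and lower in all 4 libraries at 22 C than in any at 30 C. Tested alone, the Zfp516 difference was called at 9 weeks (limma adjusted p = 0.033) and not at P28 (0.0702). Among all 11618 genes tested in this way, 3.21% differed.

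Irf4 had the next smallest adjusted p. Its cooling difference was 0.36 at 9 weeks and -1.24 at P28, and the interaction of 1.60 ± 0.42 did not pass (adjusted p = 0.0531). Ppargc1a had 1.41 at 9 weeks and -0.22 at P28 (1.63 ± 0.45, adjusted p = 0.0604), and Esrrg 1.72 and 0.30 (1.42 ± 0.39, adjusted p = 0.0619). The estimates were positive at both ages for Esrrg, and also for Esrra (0.58 and 0.40). Esrrg did not pass at P28 (limma adjusted p = 0.462), and Esrra did not pass at 9 weeks (0.363). Ucp1 was called higher at the cooler temperature at each age. Prdm16, Ebf2 and Esrra had interactions of -0.15 to 0.18. The 2 tables were scaled separately, and age and temperature step change together, so the source of the difference cannot be told apart.

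**Figure D4:**
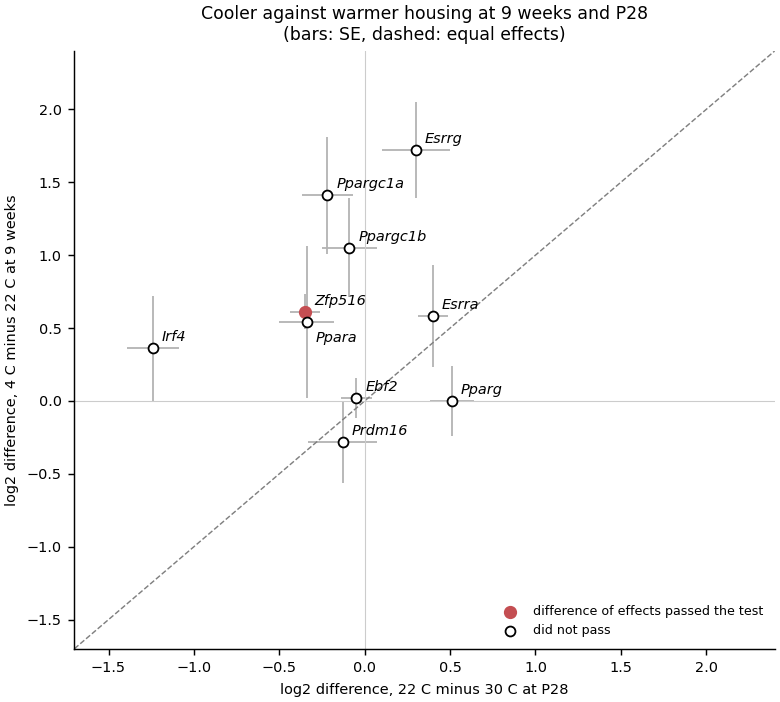
Log2 difference on cooling for each regulator: 4 C minus 22 C at 9 weeks against 22 C minus 30 C at P28, with standard errors. Zfp516, at 0.61 and -0.35, is the 1 regulator whose difference between the ages passed; Esrrg and Ppargc1a lie highest at 9 weeks and Irf4 lowest at P28.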

How the data were processed

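Poly(A) RNA of flash-frozen inguinal white adipose tissue was made into stranded libraries, per the labels' protocols. The signal deposited by the authors is a normalized count for each gene, in 5 tables of 1 comparison each. Kallisto and DESeq2, with build mm10, are named in the submitters' processing notes, without versions. Values are not whole and not raw counts, each table was scaled separately, and tests were made within a table. Values were analysed as log2(value + 1) with limma 3.58.1 in R 4.3.3 (mean-variance trend), which understates the fold changes of low genes. Tested genes had a value of 10 or more in at least n libraries, n being the size of the smaller group, and p-values were adjusted over all tested genes by the Benjamini-Hochberg method, threshold 0.05. Depth was estimated from the spacing of low values and is rough in the adult tables. The fitting was tested on simulated data.

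The 10 genes, the pathway and marker lists and most tests were chosen with earlier results of these data known. Other genes were named by a rule, up to 4 called genes of a list with the smallest p in a comparison; Slc29a1 and the 4 genes of the partner plot were singled out after their values were seen. Each table has 22622 identifiers, 21 without a symbol; columns of the P25 table name a group and a code but match no sample title. Of 16 promoter motifs searched, most were added after the first 3 had no match. Alternatives were no filter or a stricter one, other pseudocounts, quantile scaling, equal library totals, library weights, muscle, lymphocyte and Xist covariates, a replicate block and leaving out each library. The level of the targeted gene in TrkA-flox Th-cre mice is not reported here.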

Additional observations from a re-analysis of the deposited data

Results flagged for a closer look

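Values that stood apart within their group were looked for among the 10 regulators in every group of 4 to 8 libraries, 100 groups in all, by the gap of the highest or lowest value over the range of the group. Such a gap was found in 10, where chance gives about 1 in 20 groups. At P25, Prx1-cre library M1 stood apart in 3 genes, at 508 for Ppargc1b (next 339), 796 for Ebf2 (next 596) and 95.9 for Esrrg (next 57.7). Among flox libraries at P25, M1 was at 300 for Ppargc1a (next 208), the library that joins the 2 genotypes in that comparison, and M4 was at 540 for Prdm16 (next 366). At 9 weeks and 4 C, Prx1-cre replicate 4 was at 15500 for Irf4 (next 3390). Flox replicate 1 was at 4050 for Ppara (next 3060), the library without which the Ppara call was lost, and flox replicate 2 was lowest for Ebf2 at 858 (next 934). Among adult wild-type mice, 4 C replicate 2 was at 1030 for Ppargc1a (next 384). At P28, replicate 2 at 30 C was at 454 for Esrra (next 404).

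Zfp516 was marked because its cooling difference was not the same at 9 weeks and at P28, with an interaction of 0.96 on the log2 scale. Its adjusted p in limma was 0.00308 to 0.00607 with other pseudocounts, without the filter, with quantile normalization and with the tables fitted separately. Equal totals, library weights, covariates, blocks and leaving out a library were not run on this interaction.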

How the results depend on the processing

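The counts of regulators called moved with the setting. At 30 C, where 2 of 10 were called, the count was 1 without the filter on low values, 4 with library weights (Pparg and Zfp516 added), 0 with the muscle score as a covariate and 1 with the lymphocyte score. With Xist it was 2, with Esrra lost and Ppara gained, and with equal totals it was 3, with Zfp516 gained (adjusted p = 0.0399). In TrkA Th-cre mice, where 0 were called, it was 1 with equal totals, 2 with library weights and 1 with the lymphocyte score. In P25 Prx1-cre mice, where Ppargc1a was called, it was 0 without the filter (adjusted p = 0.0551) and 0 with quantile normalization (adjusted p = 0.0575). In Prx1-cre mice at 9 weeks, with 2 called, it was 1 with equal totals (Esrrg lost), 2 with the lymphocyte score, with Esrrg lost and Esrra gained (adjusted p = 0.0382), and 3 with library weights, with Esrra added (adjusted p = 0.0443). At 4 C, with 2 called, it was 5 with the muscle score, 0 with the lymphocyte score and 5 with Xist as a covariate. With equal totals it was 2, with Zfp516 lost (adjusted p = 0.0552) and Ppargc1a gained (adjusted p = 0.047). Over the fits that each left out 1 library the counts were 1 to 2 at 30 C, 0 to 2 in TrkA Th-cre mice, 0 to 1 at P25, 0 to 2 in Prx1-cre mice at 9 weeks and 0 to 1 at 4 C; fewer samples entered each of these fits. The cause of the other moves was not tested. Xist could not be a covariate for the Bcl6 genotypes at 9 weeks, where all libraries were high. Calls over all genes moved too. At 30 C they were 547 of 12283 as reported, 905 with library weights, 87 with the muscle score and 531 with Xist. In TrkA Th-cre mice they were 317 of 11899 as reported and 957 with library weights. In Prx1-cre mice at 9 weeks they were 1953 of 13496 as reported and 4777 with library weights. At 4 C they were 542 of 12118 as reported, 1893 with the muscle score, 0 with the lymphocyte score and 2226 with Xist.

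A replicate block gave 1 regulator at 30 C, 1 in TrkA Th-cre mice, 0 in Prx1-cre mice at 9 weeks and 4 at 4 C, and a block by column code gave 1 at P25. Over all genes these fits called 236, 257, 1171, 1666 and 731 in the same order. Deviations of same-numbered libraries from their group means correlated at -0.66 to 0.77, and in no table did every pair exceed 0.1. For the adult wild-type libraries r was -0.26, 0.77, 0.50 and 0.51 for numbers 1, 2, 3 and 4. There, numbers 1 and 2 had low Xist and numbers 3 and 4 high Xist at both temperatures. Whether same-numbered libraries were paired is not stated in the labels. Not every library correlated best with its own number.

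Directions that reversed all belonged to differences that were not called. At 30 C with the muscle score these were Ppargc1a (-0.013), Ppargc1b (-0.229), Prdm16 (-0.113) and Ebf2 (-0.031); with 1 library left out Prdm16 ran from -0.028 to 0.226 and Ebf2 from -0.002 to 0.095. In TrkA Th-cre mice Ppargc1a was 0.449 and Ppara -0.028 with the muscle score, Ppara was -0.092 with the lymphocyte score and Prdm16 -0.009 with Xist; with 1 library left out Ppara ran from -0.043 to 0.411 and Prdm16 from -0.032 to 0.167. At P25 Pparg was 0.026 with quantile normalization, 0.013 with equal totals, 0.017 with library weights, 0.011 with the muscle score and 0.012 with Xist, and Ppargc1b was 0.015 with the muscle score; with 1 library left out Pparg ran from -0.138 to 0.056 and Ppargc1b from -0.176 to 0.017. In Prx1-cre mice at 9 weeks Prdm16 was 0.027 and Zfp516 -0.042 with library weights, and Ppargc1a was -0.008 with the muscle score and 0 with the lymphocyte score; with 1 library left out Prdm16 ran from -0.117 to 0.036, Zfp516 from -0.023 to 0.102, Ppargc1a from -0.022 to 0.178 and Ebf2 from -0.195 to 0.008. At 4 C Ebf2 was -0.048 with quantile normalization, -0.018 with equal totals, -0.128 with library weights and -0.142 with the lymphocyte score, Pparg was -0.058, -0.034, -0.134 and -0.513 under the same 4 settings, and Ppara was -0.221 with library weights and -0.002 with the lymphocyte score; with 1 library left out Ebf2 ran from -0.074 to 0.101 and Pparg from -0.167 to 0.164.

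Of the single-gene values under settings other than leaving out a library, 577 kept direction and side of the threshold, 15 were no longer called and 20 became called. Log2 differences of genes near 100 normalized counts rest on few reads in the P28 tables.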

Other observations

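Among genes related to the regulators, Mecom, which encodes a zinc finger relative of PRDM16, passed in 3 comparisons. It fell in TrkA Th-cre mice (-0.98 ± 0.18) and rose in Prx1-cre mice at P25 (0.55 ± 0.13) and at 9 weeks (1.26 ± 0.11, limma). At P25 it was 220 to 393 in Prx1-cre libraries and 145 to 254 in flox libraries, which overlap, and at 9 weeks the genotypes did not overlap. Its direction differs from that of Ppara and Esrrg, which fell in Prx1-cre mice at 9 weeks, and Prdm16 itself was called in none of these comparisons. Tle3 rose at 30 C (0.61 ± 0.12) and fell at 4 C (-0.54 ± 0.11), while Ucp1 fell at 30 C and rose at 4 C (6.17 ± 0.53). Ucp1 also fell in TrkA Th-cre mice (-1.96 ± 0.38) and in Prx1-cre mice at P25 (-4.18 ± 0.38) and 9 weeks (-2.12 ± 0.39). Tle3 was called in none of these genotype comparisons, and its values overlapped between the groups in each. Among the other regulators at 9 weeks, Nr4a2 (1.35) and Ebf1 (0.71) also rose in Prx1-cre mice. These genes were singled out after their values were seen.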
